A study of Mus musculus with 2 samples.

Results

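The comparison set NK cells of refed mice against NK cells of mice fed ad libitum, both sorted from bone marrow. The cells were read by droplet-based single-cell RNA sequencing, in which each captured transcript carries a unique molecular identifier (UMI). Members were the cells that the authors' hashtag classification gave to 1 population only, 337 refed and 575 ad libitum cells. Together they were 912 of the 7479 singly tagged cells and of the 13118 cells of the series. The refed population is called BM_ReFed_NK and the control population BM_AL_NK in the deposited tag list. Both came from C57BL/6 mice of 12 weeks, and the labels describe subcutaneous injection of MC38 colon carcinoma cells in the ad libitum and the cyclic fasting arm alike. The sort took cells negative for lineage markers and positive for NK1.1 and CD49b, so immature cells without CD49b lay outside the gate. The sources used here give neither the length of the fast, nor the time since food was returned, nor the number of mice behind a hashtag. Each population carried 1 hashtag and was therefore 1 sample. No p-value was computed, and every interval below covers counting error only, not differences between mice or cultures. All populations of the 3 tissues were run in 1 lane, so that lane and sequencing were shared by the groups.

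The populations were separated by 15-base hashtag sequences coupled to antibodies. These oligonucleotides are shown because they alone put a cell in the refed or the ad libitum group, and no base is set in capitals because every position is part of the barcode.
BM_ReFed_NK: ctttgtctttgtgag
BM_AL_NK: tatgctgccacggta
The 2 barcodes differed at 12 of 15 positions, and the 10 barcodes of the series differed from one another at 7 to 14 positions. The classification called 5606 of 13085 classified cells doublets (42.8%), and those cells were not used. Doublets of 2 cells with the same hashtag cannot be seen this way.

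NK cells are innate lymphocytes that kill virus-infected and transformed cells with perforin and granzymes. They arise in bone marrow, where immature cells carry CD27, and during maturation they gain CD11b and then KLRG1, take on Ly49 receptors for MHC class I, and leave for the blood by way of the sphingosine-1-phosphate receptor S1PR5. The transcription factors Eomes, T-bet and Zeb2 guide this path, and Tcf7 is a factor of its early steps. Fasting lowers glucose and insulin and raises fatty acids and glucocorticoids in the blood, and refeeding turns these changes back.

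Some sorted cells fell in clusters named by markers of other cell types. A cluster of cells led by Cd3e, Cd3g, Cd3d and Il7r, called T cell-like, held 46 of 337 refed cells (13.6%, exact 95% binomial interval 10.2% to 17.8%) and 50 of 575 ad libitum cells (8.70%, 6.52% to 11.3%). A cluster led by Lyz2 and Apoe, called monocyte or macrophage-like, held 3 refed cells (0.890%, 0.184% to 2.58%) and 19 ad libitum cells (3.30%, 2.00% to 5.11%). Both were left out, 14.5% of refed and 12.0% of ad libitum cells, which left 288 refed and 506 ad libitum cells for what follows. Levels of NK cell genes in the T cell-like cluster were not examined, so NK cells may be among those left out. The authors' cluster 2 went from 150 to 115 refed cells and from 189 to 149 ad libitum cells by this step. Their summed UMIs were 2669282 and 4602477. The median cell held 7428.5 UMIs and 2173 genes in the refed and 6903 UMIs and 2092 genes in the ad libitum population.

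The remaining cells bore the defining transcripts of NK cells. Levels are given as CPM, the UMIs of a gene per 1000000 UMIs of its population. Ncr1, the activating receptor NKp46, stood at 754.1 CPM in refed and 809.6 CPM in ad libitum cells. Klrb1c, which encodes NK1.1, stood at 454.4 and 448.7 CPM, and Eomes at 212.0 and 215.5 CPM. Cd4, Cd8a and Cd6 had 0 UMIs in both populations. Summed over 8 T cell markers the level was 167.5 CPM in refed and 117.3 CPM in ad libitum cells, most of it Cd3d and Cd3g, whose RNA some NK cells also carry. The 10 monocyte or macrophage markers summed to 39.7 and 96.3 CPM and 10 dendritic cell markers to 91.8 and 19.99 CPM. Without the 1 cell that held most of each gene, these sums were 22.4 and 27.8 CPM and 7.62 and 11.4 CPM.

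Across the transcriptome the refed cells lay close to the ad libitum cells. Of 5058 genes whose 2 CPM values averaged at least 20, 7 were at least 1.5-fold higher in refed cells (0.138%) and 20 at least 1.5-fold lower (0.395%), on the scale of log2 ratios of CPM + 5. Because the filter is on the mean, some of these genes were under 20 CPM in 1 population. Examples were Klrg1 in refed cells (17.2 CPM) and H2-Ab1 in ad libitum cells (7.60 CPM). The median log2 ratio over all genes tested was -0.04, the 5th percentile was -0.33 and the 95th 0.23, and 85.0% of genes lay within 0.25 of 0. The ratio was above 0 for 40.8% of genes and below 0 for 59.2%, and the interval lay wholly above 0 for 4.63% and wholly below 0 for 8.88%. Fasted bone marrow cells set against the same ad libitum cells gave 459 of 5193 genes at least 1.5-fold higher (8.84%) and 541 lower (10.4%). That contrast shares its control cells with the refed contrast, rests on 120 cells of a median of 4327.5 UMIs, and holds 12422 CPM of 10 neutrophil markers summed, against 30.3 CPM in refed and 37.2 CPM in ad libitum cells. The refed counts depend on depth and weights: they were 244 higher and 421 lower with cells thinned to 1500 UMIs, and 44 and 90 with the same weight per cell, so the refed and fasted counts are not on an equal footing. In the spleen, refed against ad libitum cells gave 3 genes higher and 3 lower of 5137 (0.0584% each).

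**Figure D1:**
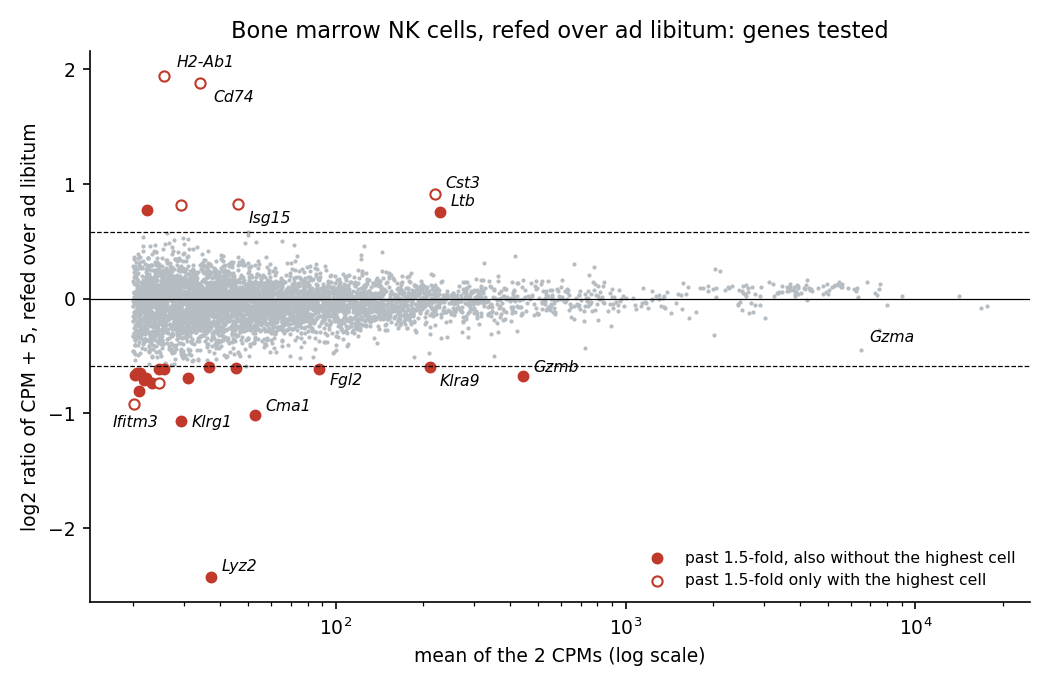
Each point is 1 of 5058 genes, by the mean of its refed and ad libitum CPM (horizontal, log scale) and its log2 ratio of CPM + 5, refed over ad libitum (vertical), in bone marrow NK cells. Dashed lines mark 1.5-fold; filled red points stayed past it when the cell with most UMIs of the gene was left out of each population, open ones did not, and 2 of the 7 genes above and 18 of the 20 below are filled.

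Of the 7 genes past 1.5-fold higher, 2 stayed past it when the cell with most UMIs of each gene was left out of both populations. These were Ltb, the lymphotoxin beta gene, and Smim10l1. The largest ratios rested on 1 cell. H2-Ab1 and Cd74, the MHC class II beta chain and the invariant chain, had log2 ratios of 1.94 and 1.88 with that cell and 0.26 and -0.41 without it. Cst3, the protease inhibitor cystatin C, stood at 288.8 CPM in refed and 151.0 CPM in ad libitum cells, and 364 of its 771 refed UMIs lay in 1 cell, without which its log2 ratio of 0.91 became 0.07. Isg15, an interferon-induced ubiquitin-like protein, gave 0.82 and 0.48 without its highest cells, and Cox6a2 gave 0.82 and 0.53. Among the lower genes most of the ratio of Lyz2, the macrophage lysozyme, rested on 1 cell: -2.43 became -0.77, still past 1.5-fold. Ifitm3, where -0.92 became -0.07, and the haemoglobin gene Hbb-bs, where -0.73 became -0.52, did not stay past it. H2-Ab1, Cd74, Lyz2, Hbb-bs, Smim10l1 and Cox6a2 lie outside the rule for named genes and were chosen after their values were seen.

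The genes that were lower in refed cells included markers and weapons of mature NK cells. Klrg1, an inhibitory receptor of the terminal stage (mm10 chr6:122270596-122282882, minus strand), stood at 17.2 CPM in refed cells, at 41.5 CPM in ad libitum cells and at 11.2 CPM in fasted cells. Its log2 ratio of refed over ad libitum was -1.06 (95% interval -1.45 to -0.68), from 46 and 191 UMIs. Cma1, a chymase of mature NK cells (chr14:55941451-55944675, minus strand), stood at 33.3 CPM in refed, 72.4 CPM in ad libitum and 60.9 CPM in fasted cells, and its log2 ratio was -1.01 (-1.32 to -0.71). Both refed levels were below the ad libitum levels by more than the counting error, and for Cma1 the fasted level lay between them.

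Granzymes and perforin, which enter and kill the target cell, were lower as well. Gzmb (chr14:56258838-56262260, minus strand) stood at 339.0 CPM in refed, 544.1 CPM in ad libitum and 210.0 CPM in fasted cells, a log2 ratio of -0.67 (-0.78 to -0.57) for refed over ad libitum. Gzma stood at 5487 and 7482 CPM, a log2 ratio of -0.45 (-0.47 to -0.42). Prf1, the perforin gene, stood at 94.4 and 125.4 CPM, a log2 ratio of -0.39 (-0.60 to -0.18). Of 16 genes tested on a list of cytotoxic effectors, 13 were below 0 and 1 of them, Gzmb, which the mature list also holds, was past 1.5-fold, against 59.2% and 0.395% of all genes. The list's median was -0.12, beside -0.04 over all genes tested. Ctsc, the protease that activates granzymes, had a log2 ratio of -0.37 (-0.62 to -0.13).

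Single genes of the exit from bone marrow and of terminal differentiation also stood lower. Their list of trafficking and adhesion genes had a median of -0.04, that of all genes tested. Of its 18 genes tested 8 were above 0 and 10 below, and 0 were past 1.5-fold. Over all genes tested, 40.8% were above 0 and 59.2% below. The intervals of 5 of the 18 lay wholly below 0 and that of 1 wholly above 0, against 8.88% and 4.63% of all genes. The list's summed log2 ratio was -0.05 (-0.09 to -0.02). S1pr5, the receptor for leaving bone marrow, stood at 17.2 CPM in refed and 28.0 CPM in ad libitum cells (log2 ratio -0.57, -0.97 to -0.17). Itgam, which encodes CD11b, stood at 28.5 and 43.5 CPM (-0.53, -0.88 to -0.20), and Zeb2 at 82.0 and 115.2 CPM (-0.47, -0.69 to -0.25). Cx3cr1, the fractalkine receptor of mature NK cells, was near the limit of detection at 1.12 and 6.52 CPM, from 3 and 30 UMIs (-0.91, -1.20 to -0.38), and its ratio ran from -1.82 to -0.23 over the alternatives. Irf8, a transcription factor of NK cell responses to virus, stood at 175.3 and 244.9 CPM (-0.47, -0.62 to -0.32). Ccl5, a chemokine stored by mature NK cells, stood at 6774 and 8177 CPM (-0.27, -0.30 to -0.25). Tbx21, which encodes T-bet, gave -0.19 with an interval that included 0 (-0.43 to 0.06), and Klf2, a factor of lymphocyte quiescence and trafficking, gave -0.07 (-0.18 to 0.04).

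On the list of mature NK cell genes, 14 of 15 were abundant enough to test, all but Cx3cr1, and 13 of the 14 were below 0, with a median log2 ratio of -0.31. Of the 14, 3 were past 1.5-fold lower (Klrg1, Cma1 and Gzmb) against 0.395% of all genes tested, and the intervals of 9 lay wholly below 0, against 59.2% of all genes below 0 and 8.88% with intervals below 0. The exception was Ly6c2, a surface antigen of mature NK cells and monocytes, which stood at 145.7 CPM in refed and 104.5 CPM in ad libitum cells (log2 ratio 0.46, 0.27 to 0.65). With cells of other types kept its log2 ratio was -0.24. Its share of cells was nearly equal between the populations. After each cell was thinned to 1500 UMIs, 27 of 276 refed cells (9.78%) and 46 of 486 ad libitum cells (9.47%) had a UMI of Ly6c2. Without thinning they were 42 of 288 (14.6%) and 91 of 506 (18.0%). In fasted cells, set against the same ad libitum cells, the mature list had a median of 0.02, with 7 genes above 0 and 7 below. Over all genes tested the fasted median was -0.002. Itgam stood at 64.1 CPM and Ccl5 at 12249 CPM in fasted cells, both above their ad libitum levels. These fasted values stand beside the neutrophil transcripts given above, whose part was not tested.

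Genes of early NK cells stood higher in refed cells. Ltb (chr17:35194439-35196320, plus strand) stood at 289.6 CPM in refed, 169.7 CPM in ad libitum and 373.5 CPM in fasted cells, and the log2 ratio of refed over ad libitum was 0.75 (0.61 to 0.90). Tcf7 stood at 77.5 and 53.2 CPM (0.50, 0.25 to 0.76). Cd27 stood at 137.9 and 107.3 CPM (0.35, 0.16 to 0.54). Xcl1, a chemokine that attracts dendritic cells, stood at 733.5 and 592.5 CPM (0.31, 0.22 to 0.39). Of the 15 genes of the immature NK cell list 10 were abundant enough to test, and all 10 were above 0, with a median of 0.25, and the intervals of 8 lay wholly above 0, against 40.8% and 4.63% of all genes. Only Ltb was past 1.5-fold, against 0.138% of all genes tested. T cell markers stood higher in refed cells beside this list. Cd3d, a subunit of the T cell receptor complex, stood at 84.3 and 59.5 CPM (0.47, 0.22 to 0.71). When cells with a UMI of Cd3d, Cd3e or Cd3g were left out, an alternative added once the values were known, the median of the immature list was 0.40 and that of the mature list -0.36, and Ltb gave 1.06.

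Counted cell by cell, the same genes differed in how many cells held them. After thinning, which left out 12 refed and 20 ad libitum cells of lower depth, 6 of 276 refed cells (2.17%, exact 95% interval 0.80% to 4.67%) and 36 of 486 ad libitum cells (7.41%, 5.24% to 10.1%) had a UMI of Klrg1. Gzmb was seen in 34.4% (28.8% to 40.4%) and 45.1% (40.6% to 49.6%). Ltb was seen in 31.5% (26.1% to 37.4%) and 20.8% (17.3% to 24.7%), and Cd27 in 21.4% (16.7% to 26.7%) and 16.7% (13.5% to 20.3%). Cells with a UMI of Itgam and none of Cd27, the late pattern of the classical CD27 and CD11b stages, were 11 of 276 refed cells (3.99%, 2.01% to 7.02%) and 39 of 486 ad libitum cells (8.02%, 5.77% to 10.8%). The intervals of Klrg1, Gzmb and Ltb were apart between the populations, and those of Cd27 and of the Itgam pattern overlapped. Over all genes tested, intervals were apart with the refed share higher for 0.0593% and lower for 0.435%. This separation depended on the setting: Klrg1 intervals overlapped in cells thinned to 1000 UMIs (0.386% to 3.58% and 2.79% to 6.61%), and Gzmb intervals overlapped without thinning (61.3% to 72.4% and 71.3% to 79.0%) and with other cell types kept (27.6% to 38.1% and 34.3% to 42.5%). Each thinned setting was a single random draw, and keeping other cell types drew the UMIs anew. Ad libitum cells with a Klrg1 UMI were then 31 of 553, fewer than the 36 of 486 above. How far the draw moves these shares was not tested. Without thinning the shares were 9.38% and 19.96% for Klrg1, 67.0% and 75.3% for Gzmb, 60.4% and 40.9% for Ltb, and 63.5% and 54.2% for Cd27. Among 80 monocyte or macrophage-like cells of all tissues, of a median of 9778.5 UMIs, the thinned shares were 0% of 69 cells for Klrg1, 10.1% for Gzmb, 8.70% for Ltb and 1.45% for Cd27. Where the UMIs of these genes in those cells came from was not tested. Ly6c2 and Itgam are themselves monocyte genes, and Ly6c2 was in 55.1% of those 69 cells.

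**Figure D2:**
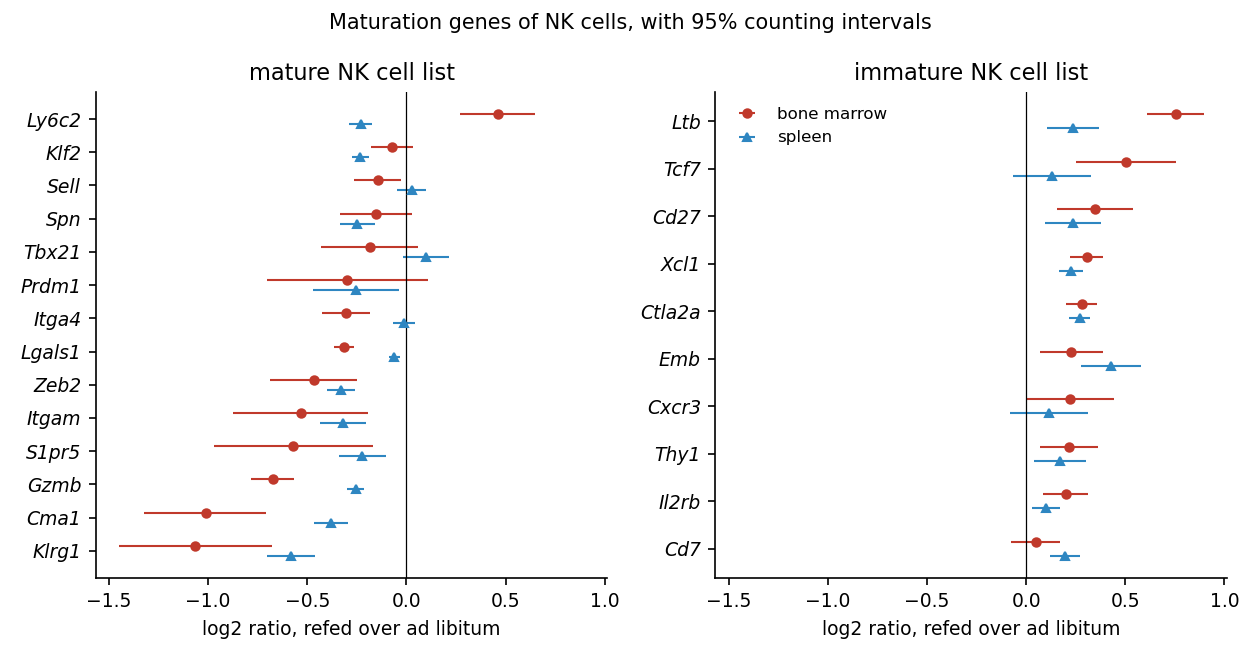
Log2 ratios of refed over ad libitum (horizontal) for the genes tested of the mature and the immature NK cell list, in bone marrow (red circles) and spleen (blue triangles), with bars for the 95% counting interval. In bone marrow 13 of 14 mature genes lie below 0 with Ly6c2 above it, and 10 of 10 immature genes lie above 0.

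Ly49 genes, receptors by which NK cells read self MHC class I, were lower in refed cells. All 6 genes tested were below 0, with a median of -0.34, and 1 was past 1.5-fold, against 59.2% and 0.395% of all genes. Klra9 stood at 166.7 CPM in refed and 254.9 CPM in ad libitum cells (log2 ratio -0.60, -0.75 to -0.44). Klra3 gave -0.51 (-0.67 to -0.34) and Klra8, the receptor Ly49H that recognises a cytomegalovirus protein, gave -0.50 (-0.62 to -0.38). Klra4 gave -0.18 (-0.26 to -0.09). These genes are close copies of one another, so how reads were shared among them is uncertain. In the spleen the same list had a median of -0.01, with 5 of 6 genes below 0, beside a median of -0.03 over all genes tested there. Klra9 gave -0.38 (-0.44 to -0.32) in spleen, Klra3 and Klra8 -0.00 each and Klra4 0.01. With cells of other types kept, the bone marrow median was -0.18.

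Other receptors were mixed. Of 17 NK cell receptor genes tested, 10 were above 0 and 7 below, against 40.8% and 59.2% of all genes, with a median of 0.01. Cd160, a receptor shared with T cells, stood at 164.8 and 123.2 CPM (0.41, 0.23 to 0.58). Klrc2, an activating partner of CD94, gave -0.21 (-0.36 to -0.05). Among 18 transcription factors of NK cells 14 were below 0, against 59.2% of all genes, with a median of -0.16. Tox, needed for early NK cell development, was past 1.5-fold lower at 28.1 and 45.0 CPM (-0.59, -0.94 to -0.26), as were 0.395% of all genes. Eomes gave -0.02 (-0.17 to 0.12). Cxcr4, the receptor that holds cells in bone marrow, stood at 51.3 and 51.7 CPM (-0.01, -0.30 to 0.27). The fasted cells stood at 113.8 CPM, beside the neutrophil transcripts given above, whose part in that level was not tested.

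Of the remaining genes named by their ratios, Fgl2, a fibrinogen-like protein secreted by lymphocytes, stood at 68.2 and 106.7 CPM (-0.61, -0.85 to -0.38). Coro2a, an actin-binding coronin, gave -0.52, Plac8 gave -0.51, and Sft2d1, Vps37b and Bbip1 lay between -0.50 and -0.47. On the higher side Mbp gave 0.49, Ubxn4 0.38, Yme1l1, a protease of the inner mitochondrial membrane, 0.37, Cldnd1 0.36, and Madd and Hikeshi 0.33 each. None of these higher genes was past 1.5-fold, and the counting intervals of all of them leave out 0 by the rule that named them. Cldnd1 ran from -0.27 to 0.41 over 13 alternatives and turned sign in 2 of them. Plac8 stayed below 0 but ran from -1.39 to -0.20.

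The populations also differed in their shares of some clusters of the authors' own numbering. Clusters 3, 4 and 5 had the highest levels of Cma1 among the clusters of at least 10 cells in these populations, 235.4, 537.1 and 208.1 CPM, against 26.2 to 118.6 CPM elsewhere. Other mature genes gave another order: cluster 9, with 18 cells, had more Klrg1 than cluster 5 (94.7 and 89.8 CPM) and more Gzmb (1539 and 1102 CPM). Clusters 1, 6, 7 and 9 had more Itgam than cluster 5 (87.0, 46.6, 52.0 and 94.7 CPM, against 42.6 CPM). Cluster 3 held 5 of 288 refed cells (1.74%, 0.57% to 4.00%) and 39 of 506 ad libitum cells (7.71%, 5.54% to 10.4%). Cluster 4 held 0 of 288 refed cells (exact interval 0% to 1.27%) and 10 of 506 ad libitum cells (1.98%, 0.95% to 3.60%). Taken as 3 counts of the total, the limit for the refed share was 1.04%. Cluster 5 held 5 refed cells (1.74%, 0.57% to 4.00%) and 25 ad libitum cells (4.94%, 3.22% to 7.21%). The intervals of refed and ad libitum cells were apart for cluster 3 and overlapped for clusters 4 and 5. Grouped after the data were seen, the 3 clusters held 10 of 288 refed cells (3.47%, 1.68% to 6.29%) and 74 of 506 ad libitum cells (14.6%, 11.7% to 18.0%). The fasted share was 7 of 120 cells (5.83%, 2.38% to 11.6%). The clusters were drawn from the genes of these cells, Klrg1, Cma1 and Gzmb among them, so these shares are no independent measure of those genes.

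Cluster 2 was the largest cluster of both populations, with 115 of 288 refed cells (39.9%, 34.2% to 45.8%) and 149 of 506 ad libitum cells (29.4%, 25.5% to 33.6%). Clusters 6, 7 and 10 had the highest levels of the proliferation marker Mki67, 1101, 525.3 and 610.9 CPM. Cluster 6 held 18.4% of refed and 18.4% of ad libitum cells. Cluster 10, whose cells were the deepest, held 15.6% (11.6% to 20.3%) and 17.8% (14.6% to 21.4%), against 6 of 120 fasted cells (1.86% to 10.6%). Cluster 7 held 9.03% (5.98% to 12.9%) and 6.92% (4.86% to 9.49%), against 29.2% of fasted cells (21.2% to 38.2%). In clusters 1, 6, 7 and 10 the intervals of refed and ad libitum shares overlapped. Cells of clusters 0, 8, 9 and 11 were few, at most 14 in either population.

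**Figure D3:**
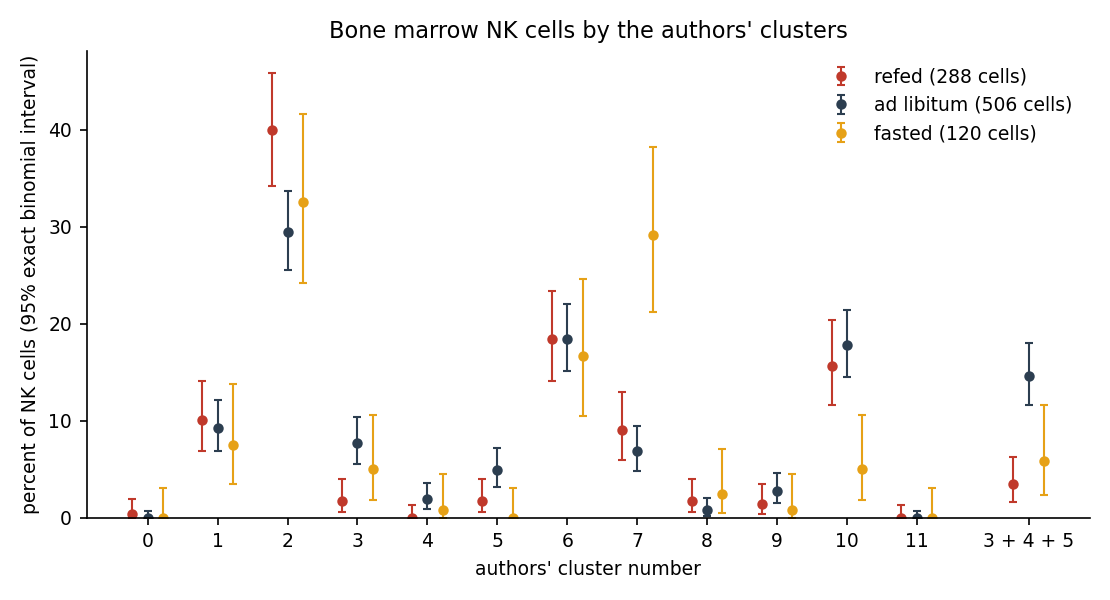
Percent of bone marrow NK cells in each cluster of the authors' numbering (horizontal), with exact 95% binomial intervals, for refed, ad libitum and fasted cells; the last position sums clusters 3, 4 and 5. The summed share is 3.47% of refed and 14.6% of ad libitum cells, and cluster 7 holds 29.2% of fasted cells.

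With clusters 3, 4 and 5 left out of both populations, likewise an added alternative, the median of the mature list was -0.28 and that of the immature list 0.21. In that setting Klrg1 gave -0.80, Cma1 -0.67, Gzmb -0.74 and Ltb 0.72, whereas S1pr5 went from -0.57 to -0.18, Cx3cr1 from -0.91 to -0.36 and Isg15 from 0.82 to 0.32. Within single clusters of at least 10 cells in both populations, the summed level of the mature list was lower in refed cells in all 5, from -0.37 (-0.49 to -0.25) in cluster 6 to -0.19 (-0.35 to -0.02) in cluster 7. Gzmb was lower in all 5 as well, with log2 ratios from -1.53 (-1.79 to -1.27) in cluster 10 to -0.17 (-0.38 to 0.03) in cluster 2. Other mature or cytotoxic genes were not lower in every cluster: Cma1 gave 0.26 in cluster 6 and 0.15 in cluster 7, Itgam 0.47 in cluster 2, Zeb2 0.02 in cluster 2, and Gzma 0.03 and S1pr5 0.96 in cluster 6, and the intervals of all of these included 0.

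The immature list was less even. Its summed level was higher in refed cells in cluster 1 (0.55, 0.43 to 0.66), cluster 6 (0.46, 0.35 to 0.57) and cluster 7 (0.61, 0.42 to 0.79). In cluster 2, the largest, it was -0.04 (-0.10 to 0.02), and in cluster 10 it was 0.01 (-0.07 to 0.10). Ltb was higher in refed cells in clusters 1, 2, 6 and 7, by 0.67 to 1.59, and lower in cluster 10 (-0.44, -0.86 to -0.04). Xcl1 turned direction as well, with 0.94 in cluster 1 and -0.48 (-0.61 to -0.36) in cluster 2. Ly6c2 was higher in refed cells in cluster 2 (1.38, 1.00 to 1.77) and cluster 1 (0.88, 0.40 to 1.36). In cluster 7 no refed UMI of it was found.

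**Figure D4:**
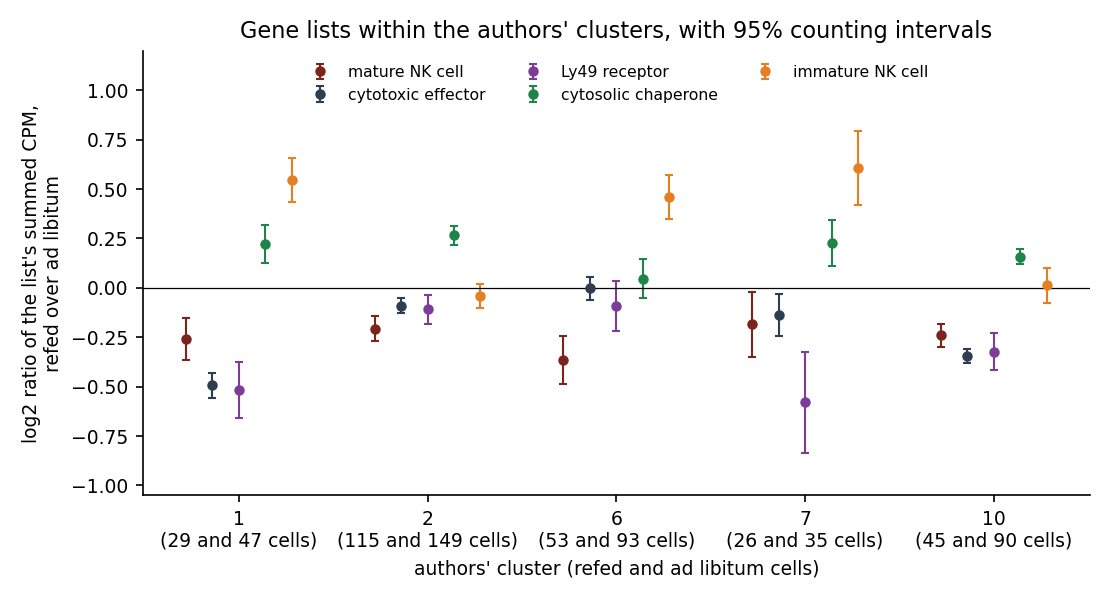
Log2 ratio of the summed CPM of 5 gene lists, refed over ad libitum (vertical), within each cluster of the authors' numbering that held at least 10 cells of both populations (horizontal), with 95% counting intervals. The mature list lies below 0 in all 5 clusters, and the immature list lies near 0 in clusters 2 and 10.

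Genes of cell division stood slightly lower in refed cells, and those of DNA replication and growth lay near the median of all genes. Of 28 DNA replication genes tested, 12 were above 0 and 16 below, against 40.8% and 59.2% of all genes, with a median of -0.03. Mcm2, a subunit of the replicative helicase, gave -0.33 (-0.65 to -0.02) and Pold1, a DNA polymerase subunit, 0.34 (0.01 to 0.66). Of 28 mitosis genes 23 were below 0 and 8 intervals lay wholly below 0, against 59.2% and 8.88% of all genes. Their median was -0.12, and 0 were past 1.5-fold in either direction. Without clusters 6, 9, 10 and 11, of which 6 and 10 were high in Mki67, the median was -0.45. Mki67 stood at 325.6 CPM in refed and 399.6 CPM in ad libitum cells (-0.29, -0.41 to -0.18), and Cenpe, a kinesin of the centromere, at 56.9 and 82.6 CPM (-0.50, -0.76 to -0.24). All 15 replication-dependent histone genes were below 0 and 6 intervals lay wholly below 0, against 59.2% and 8.88% of all genes. Their median was -0.14, though reads of these close copies may be shared. The list of MYC and nucleolar growth genes had a median of -0.04, and its nucleolin gene Ncl gave -0.19 (-0.27 to -0.11). For the fasted cells against the same controls the medians were -1.17 for DNA replication, -0.95 for mitosis, -0.97 for histones and -0.68 for nucleolar growth. Mki67 stood at 182.7 CPM there. Those values stand beside the neutrophil transcripts and the lower depth of the fasted cells given above, whose part in them was not tested.

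Metabolic lists also had medians near 0 in refed cells. The medians were -0.04 for glycolysis (11 genes), 0.01 for the nuclear genes of oxidative phosphorylation (39 genes), -0.03 for fatty acid oxidation (15 genes) and 0.02 for the amino acid response driven by ATF4 (11 genes). For fasted cells they were -0.47, -0.42, -0.06 and -0.32. Refed medians of sterol and fatty acid synthesis (5 genes) and of PPAR targets (2 genes) were -0.08 and -0.11. Mitochondrially encoded genes had a refed median of 0.03. Of these 13 genes 11 were above 0 and 6 intervals lay wholly above 0, against 40.8% and 4.63% of all genes. Ldha, lactate dehydrogenase, stood at 462.3 CPM in refed, 438.9 CPM in ad libitum and 258.1 CPM in fasted cells. Sqstm1, the autophagy receptor p62, was past 1.5-fold lower at 34.8 and 55.4 CPM (-0.60, -0.91 to -0.29), while its list of lysosome and autophagy genes had a median of -0.06.

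Lists of genes tied to fasting hormones also lay near 0 in refed cells and above 0 in fasted cells. Glucocorticoid target genes had a median of -0.06 in refed cells and of 0.67 in fasted cells. In refed cells 10 of 11 were below 0, against 59.2% of all genes. Fkbp5, a glucocorticoid-induced co-chaperone, stood at 33.0 CPM in refed, 36.1 CPM in ad libitum and 81.7 CPM in fasted cells. The list of FOXO and KLF2 quiescence genes had medians of -0.01 and 0.51, and all 17 of its genes were above 0 in fasted cells against 7 of 17 in refed cells. Over all genes tested, 40.8% were above 0 in refed cells, and the median in fasted cells was -0.002. Il7r, the interleukin 7 receptor, stood at 10.5, 8.47 and 70.5 CPM in refed, ad libitum and fasted cells. Here and for the other lists, fasted values stand beside the neutrophil transcripts and lower depth given above, whose part was not tested. Whether refed and fasted cells differ was not tested, since each population is 1 sample. Both are set against the same ad libitum cells, so their ratios are not independent.

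Chaperones of the cytosol, which fold new proteins, were the list other than the immature genes that stood furthest above 0. Of 14 genes tested 9 were above 0, with a median of 0.12 and 7 intervals wholly above 0, against 40.8% and 4.63% of all genes, and 0 were past 1.5-fold. In cluster 6, 11 of the 14 were below 0, while the list's summed log2 ratio there was 0.05 (-0.05 to 0.15). The share of all genes below 0 within that cluster was not counted. Dnaja1, a partner of HSP70, stood at 471.7 CPM in refed and 362.4 CPM in ad libitum cells (0.38, 0.27 to 0.48). Hspa8, the constitutive HSP70, stood at 2214 and 1854 CPM (0.26, 0.21 to 0.30), and Hsp90ab1 at 2291 and 1941 CPM (0.24, 0.19 to 0.29). Endoplasmic reticulum chaperones had a median of -0.00. In the spleen the medians of these lists were 0.36 and 0.18, and in fasted bone marrow -0.74 and -0.63.

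Lists of activation genes had medians close to that of all genes tested. Interferon-induced genes had a median of 0.01, immediate-early genes of 0.02 and NF-kB response genes of -0.10. Ifng, the main cytokine of NK cells, stood at 123.6 and 107.8 CPM (0.19, -0.01 to 0.39), Ccl3 at 203.1 and 259.0 CPM (-0.34, -0.49 to -0.20), and Cd69, an early activation marker, gave 0.10 (-0.11 to 0.31). Tnfrsf9, the costimulatory receptor 4-1BB, gave -0.50 (-0.80 to -0.19). Of 18 actin and cytoskeleton genes 15 were below 0, against 59.2% of all genes, with a median of -0.08. Myh9, the heavy chain of nonmuscle myosin, gave -0.33 (-0.48 to -0.19). Apoptosis regulators had a median of -0.07 and genes of MHC class I and antigen processing of -0.03.

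**Figure D5:**
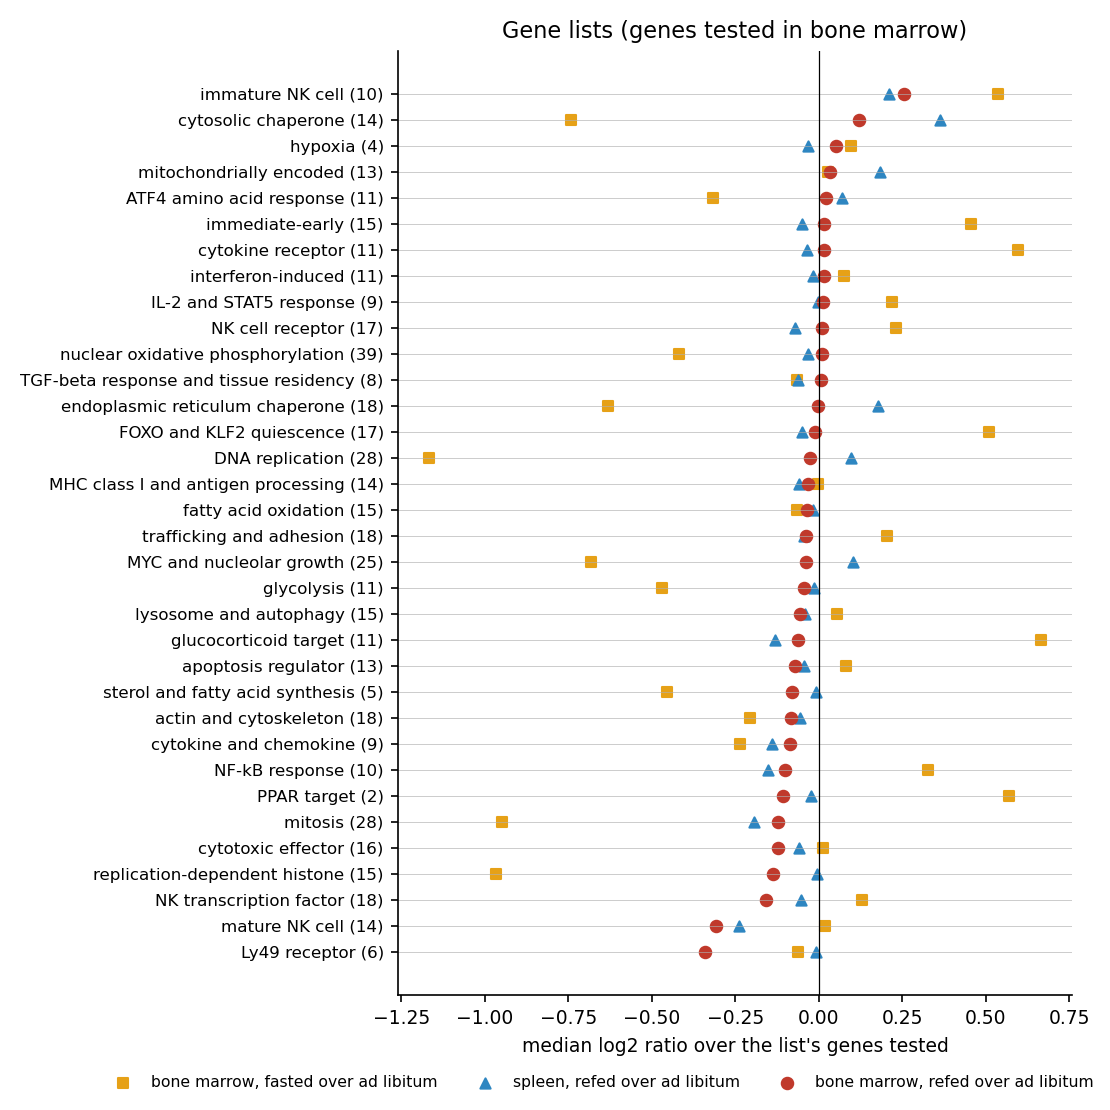
Median log2 ratio (horizontal) of each gene list (vertical, with the number of genes tested) for refed over ad libitum bone marrow cells (red circles), refed over ad libitum spleen cells (blue triangles) and fasted over ad libitum bone marrow cells (yellow squares), the last sharing its controls with the first. Refed bone marrow medians run from -0.34 (Ly49 receptors) to 0.25 (immature NK cell genes), whereas the fasted medians reach -1.17 for DNA replication.

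The spleen gave values for the same feeding contrast in other cells, 1468 refed and 1782 ad libitum cells of medians of 4389 and 4209.5 UMIs. The mature list had a median of -0.24 there, with 12 of 14 genes below 0, and the immature list of 0.21, with 10 of 10 above 0. Over all genes tested in spleen the median was -0.03, and their shares above and below 0 were not counted. Klrg1 stood at 109.6 CPM in refed and 166.7 CPM in ad libitum spleen cells (-0.58, -0.70 to -0.46), Gzmb at 992.1 and 1186 CPM (-0.26), and Ltb at 119.2 and 100.4 CPM (0.24). Clusters 3, 4 and 5 held 44.5% of refed spleen cells (41.9% to 47.1%) and 60.7% of ad libitum spleen cells (58.4% to 63.0%). Whether any ratio differs between the tissues was not tested. If the hashtags of both tissues came from the same mice, the tissues share those mice, which the sources used here do not tell.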

How the data were processed

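Hashtagged NK cells were sequenced in 1 lane. The deposited matrix holds UMI counts per cell and gene. Per the labels, seqc made it, and the submitters' processing notes name mm10. Cluster numbers and hashtag classes are the authors' own, by methods the sources used here do not give. The 16800 gene columns were summed to 16789 symbols, of which 16278 matched GENCODE M21, the source of coordinates. Hashtag sequences are those of the deposited tag list. The 13085 classified barcodes are cells of the matrix, and 33 cells had no class. Cells the authors called doublets were left out, and no doublet caller was run.

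All 7479 singlets were clustered (scanpy 1.11.5, leidenalg 0.10.2 at resolution 0.8, 2000 variable genes, 30 components, 15 neighbours). A cluster was named from at least 3 markers of 1 type among its top 30 genes. UMIs were summed per population and scaled to CPM. Ratios are log2 of CPM + 5 for genes of a mean of at least 20 CPM, with Clopper-Pearson 95% intervals of the counts. The ratio code was tested on simulated data. TMM factors came from edgeR 4.0.16. Python 3.11.15, numpy 2.4.6, scipy 1.17.1 and pandas 2.3.3 were used.

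Named genes were the 15 highest and 15 lowest ratios at a mean of at least 50 CPM whose interval left out 0, without gene models and mitochondrial, ribosomal, haemoglobin, immunoglobulin and T cell receptor genes. Up to 4 members of each of 34 lists and a set of NK genes were added. The populations, lists and genes were chosen with earlier results of these data known. Alternatives varied the normalization, cells, weights, pseudocount and filter in 13 settings, and 2 more were added after the data were seen.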

Additional observations from a re-analysis of the deposited data

Results flagged for a closer look

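Among the named genes, 4 had intervals on opposite sides of 0 for refed over ad libitum feeding in bone marrow and in spleen. The difference between the tissues was not tested, since each population is 1 sample. Cst3 had a log2 ratio of 0.91 in bone marrow and -0.12 in spleen, and the bone marrow value was 0.07 without its highest cell. Ly6c2 gave 0.46 and -0.23, and its bone marrow value was -0.24 with cells of other types kept. Ncl gave -0.19 in bone marrow and 0.09 in spleen. P4hb, a protein disulfide isomerase of the endoplasmic reticulum, gave -0.25 and 0.15.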

How the results depend on the processing

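The medians of the immature (0.21 to 0.40), mature (-0.56 to -0.21) and Ly49 lists (-0.46 to -0.18) kept their direction in all 15 alternatives, as did that of cytosolic chaperones (0.09 to 0.24). The number of genes past 1.5-fold did not hold: 7 higher and 20 lower became 13 lower with TMM factors, 21 higher with totals without ribosomal protein and mitochondrial genes, 47 lower with cells of other types kept, 40 and 57 without the authors' clusters 6, 9, 10 and 11, 44 and 90 with the same weight per cell, 244 and 421 with thinned cells, 35 and 85 with equal cluster weights, 3 higher without the highest cells, 13 and 36 with CPM + 1, 4 lower with CPM + 20, 2 and 4 at a mean of 50 CPM, 34 and 72 at a mean of 5 CPM, and 13 and 59 without cells with a Cd3 UMI. Thinned cells hold fewer UMIs, and the minimum mean sets how many genes are tested; other causes were not tested. No paired analysis was possible because each population is 1 sample.

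Of 510 list medians under alternatives 13 moved past the counting error and 89 turned sign. Ly49 genes gave -0.18 with other cell types kept, and mitosis genes -0.45 without clusters 6, 9, 10 and 11. Cytokine and chemokine genes, at -0.09, gave 0.093 without those clusters, 0.37 with thinned cells and 0.076 at a mean of 5 CPM. Mitochondrially encoded genes, at 0.03, gave 0.080 with TMM factors, 0.093 without those clusters, 0.086 with thinned cells and 0.11 with equal cluster weights. Thinned cells also gave 0.40 for immature, -0.56 for mature, -0.43 for sterol and fatty acid synthesis and -0.27 for TGF-beta response genes. Of 1989 values of named genes under alternatives, 197 moved past the interval, 90 turned sign, Ly6c2 among them, and 3 turned the sign of a ratio past 1.5-fold: without clusters 6, 9, 10 and 11 Cst3 gave -0.0060 and Ifitm3 0.73, and Ifitm3 gave 0.36 without cells with a Cd3 UMI.

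Among cells of at least 3000 UMIs, cluster 2 held 47.3% of refed and 34.1% of ad libitum cells, cluster 6 held 10.0% and 12.6%, cluster 9 held 0% and 0.467%, and cluster 8 held 0.418% of refed cells. Shares of cells with a UMI follow the depth. Thinned to 1000 UMIs they were 22.6% and 36.5% for Gzmb, 21.9% and 13.1% for Ltb and 15.5% and 12.4% for Cd27 in refed and ad libitum cells, and 4.42% for Klrg1 in ad libitum cells. Without thinning they were 9.38% and 19.96% for Klrg1, 67.0% and 75.3% for Gzmb, 60.4% and 40.9% for Ltb, 63.5% and 54.2% for Cd27, and 14.6% and 18.0% for Ly6c2. With other cell types kept, Ltb was in 38.6% of refed cells, Gzmb in 38.3% of ad libitum cells, and Ly6c2 in 17.9% and 15.7%. Ratios of genes below 20 CPM, such as Cx3cr1, rest on few UMIs.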
